A study of Homo sapiens with 5 samples.

Results

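The cells described here are human cells recovered from cortical organoid grafts in mouse brain that co-detected genes of intermediate progenitors. Of 29505 human graft cells in 4 libraries, 1101 (3.73%) were chosen, 242 from the hippocampal graft at 2 months (HIP_2MPT), 383 from the prefrontal graft at 2 months (PFC_2MPT), 348 from the hippocampal graft at 4 months (HIP_4MPT) and 128 from the prefrontal graft at 4 months (PFC_4MPT). A cell was chosen when at least 2 of the 4 genes EOMES, PPP1R17, NEUROD4 and PENK had a unique molecular identifier (UMI, 1 counted transcript molecule) and fewer than 3 of the 5 cycle genes MKI67, TOP2A, CENPF, NUSAP1 and TPX2 had one. Before that, cells needed over 500 UMIs, over 500 genes, a mitochondrial share below 0.15 and more than 80% of their UMIs on human genes when reads were mapped to a joint human and mouse genome. The cells were thus chosen by the detected UMIs of these 9 genes, so their levels are given as a description without a test. These cells are called gated progenitors below.

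All cells came from organoids of H9, an established human embryonic stem cell line with a WT genotype label, in a derivative that carries the light-gated channel ChR2 fused to EYFP at the AAVS locus. Organoids cultured for 42 days were placed in the prefrontal cortex (PFC) or hippocampus (HIP) of immunodeficient mice (SCID in the study's methods, SCID-Beige elsewhere in it), and EYFP-positive tissue was taken 2 or 4 months later, while the D0 library holds the organoids themselves, without a host. Each condition has 1 library of 10x Genomics 3′ counts from 1 stem cell line, the number of mice behind a library is not in the labels, and HIP and PFC were used as the 2 replicates of a stage, so the p-values measure the spread between libraries that also differ in graft site. Grafts were dissociated with Trypsin-EDTA and D0 organoids with TrypLE, and the D0 counts came from another Cell Ranger version, so D0 is set beside the grafts without a test.

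Intermediate progenitors are the transit-amplifying cells of the developing cortex. Radial glia at the ventricular surface give rise to them, they settle in the subventricular zone, and after few divisions they produce excitatory neurons. EOMES, also known as TBR2, is the T-box transcription factor that defines them in the cortex, NEUROD4 is a proneural basic helix-loop-helix factor, PPP1R17 encodes an inhibitor of protein phosphatases, and PENK encodes the precursor of the enkephalin opioid peptides.

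The promoters of 3 of the gate genes and of NEUROD6, a gate-independent neuronal differentiation factor that fell with time in the gated progenitors, are shown because proneural basic helix-loop-helix factors bind E-boxes. Each is the RefSeq window of 300 bases from 250 before to 50 after the transcription start, in the direction of the gene, on build GRCh38.p14, and capitals mark the E-box letters CAGCTG, which read the same on both strands, or CAGATG and its reverse complement CATCTG. EOMES lies on chr3:27722274-27722573 (minus strand), PPP1R17 on chr7:31686965-31687264 (plus strand), NEUROD4 on chr12:55019724-55020023 (plus strand) and NEUROD6 on chr7:31340677-31340976 (minus strand).
EOMES: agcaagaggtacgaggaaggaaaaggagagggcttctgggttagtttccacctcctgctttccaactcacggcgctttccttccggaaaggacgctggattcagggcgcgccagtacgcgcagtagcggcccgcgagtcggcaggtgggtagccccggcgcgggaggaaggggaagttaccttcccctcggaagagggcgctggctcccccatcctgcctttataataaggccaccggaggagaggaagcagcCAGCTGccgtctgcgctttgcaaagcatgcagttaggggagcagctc
PPP1R17: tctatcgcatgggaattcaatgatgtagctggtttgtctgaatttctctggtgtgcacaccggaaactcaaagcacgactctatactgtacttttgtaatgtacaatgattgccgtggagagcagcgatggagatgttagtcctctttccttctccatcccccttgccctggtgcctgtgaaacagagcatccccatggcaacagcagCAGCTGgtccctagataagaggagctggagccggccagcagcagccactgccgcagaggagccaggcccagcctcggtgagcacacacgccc
NEUROD4: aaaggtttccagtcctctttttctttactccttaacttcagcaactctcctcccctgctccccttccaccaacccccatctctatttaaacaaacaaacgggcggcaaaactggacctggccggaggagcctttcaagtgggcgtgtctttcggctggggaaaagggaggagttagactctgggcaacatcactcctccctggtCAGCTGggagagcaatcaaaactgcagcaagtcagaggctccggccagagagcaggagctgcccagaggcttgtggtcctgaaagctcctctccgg
NEUROD6: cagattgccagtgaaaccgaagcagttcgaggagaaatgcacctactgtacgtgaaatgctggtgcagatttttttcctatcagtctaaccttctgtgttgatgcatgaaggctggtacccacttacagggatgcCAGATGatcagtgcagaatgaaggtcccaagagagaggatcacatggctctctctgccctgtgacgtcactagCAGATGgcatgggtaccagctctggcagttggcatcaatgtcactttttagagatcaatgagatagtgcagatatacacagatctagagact

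The EOMES, PPP1R17 and NEUROD4 windows each held 1 CAGCTG, at bases 254 to 259, 209 to 214 and 205 to 210 of the window. The NEUROD6 window held CAGATG at bases 136 to 141 and again at bases 209 to 214. The PENK window is not shown, so these matches are no count over all gate genes. Among 35116 RefSeq promoter windows of this length, 17.9% held CAGCTG and 29.8% held any of the 3 letter strings. A match is a description of the letters and not a bound site, and binding was not measured in this series. In GENCODE v44 on GRCh38 the genes span chr3:27715949-27722711 (EOMES), chr7:31687215-31708455 (PPP1R17), chr12:55019974-55030017 (NEUROD4), chr8:56436674-56446671 (PENK) and chr7:31337465-31340726 (NEUROD6).

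The libraries differed in depth and quality. Every later list of 4 values runs from the hippocampal and prefrontal 2-month libraries to the hippocampal and prefrontal 4-month libraries. Over all barcodes they gave 12451092, 15734989, 23911467 and 20213518 UMIs on the human reference. The gated progenitors held 369056, 1133336, 1206594 and 315942 of those UMIs, with a median of 1342, 2717, 3144 and 2331.5 UMIs per cell. HIP_2MPT was the shallowest library per cell, and PFC_4MPT had the highest mitochondrial share, a median over its gated progenitors of 7.29% of UMIs per cell against 3.64%, 2.36% and 3.33% in the other 3. The median share of UMIs on mouse genes was 3.81%, 0.822%, 2.36% and 5.31% per gated progenitor. The other human graft cells of the same libraries had median mitochondrial shares of 3.77%, 2.35%, 3.01% and 7.31%. No cell barcode shared between 2 libraries belonged to gated progenitors of both.

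The share of gated progenitors among human graft cells did not follow the graft's age in the same way at the 2 sites. In the hippocampus it was 2.92% (exact Clopper-Pearson 95% interval 2.57 to 3.31) at 2 months and 5.03% (4.53 to 5.58) at 4 months. In the prefrontal cortex it was 6.43% (5.82 to 7.09) at 2 months and 1.53% (1.28 to 1.82) at 4 months. These intervals cover counting error only. The means were 4.68% ± 2.48 (SD, n = 2) at 2 months and 3.28% ± 2.48 (SD, n = 2) at 4 months, and the stages overlapped. The smallest two-sided p that an exact permutation test of 2 libraries against 2 can give is 0.333, so no such permutation test of this share could pass a threshold of 0.05. In D0, the same gate chose 104 of 4900 cells, 2.12% (1.74 to 2.57).

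Detection of a pair of genes depends on how many molecules of a cell were read, so each cell was also thinned to 1000 UMIs. At that depth the share was 1.84% (122 of 6642 cells), 2.83% (162 of 5719), 1.42% (96 of 6742) and 0.528% (39 of 7381). Both thinned 4-month shares lay below both thinned 2-month shares, although the intervals of HIP_2MPT (1.53 to 2.19) and HIP_4MPT (1.15 to 1.74) overlapped. Cells below 1000 UMIs were left out of the thinned shares, 1635, 233, 171 and 982 of them. The hippocampal order of the stages thus depended on depth. The size of the hippocampal difference depended on PENK, since a gate on 2 of the other 3 genes gave 2.19% at 2 months and 2.20% at 4 months. In the prefrontal cortex that gate gave 4.72% and 0.670%, and the share was lower at 4 months under each of these settings. The D0 share at 1000 UMIs was 0.152%, from 7 of 4618 cells.

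**Figure D1:**
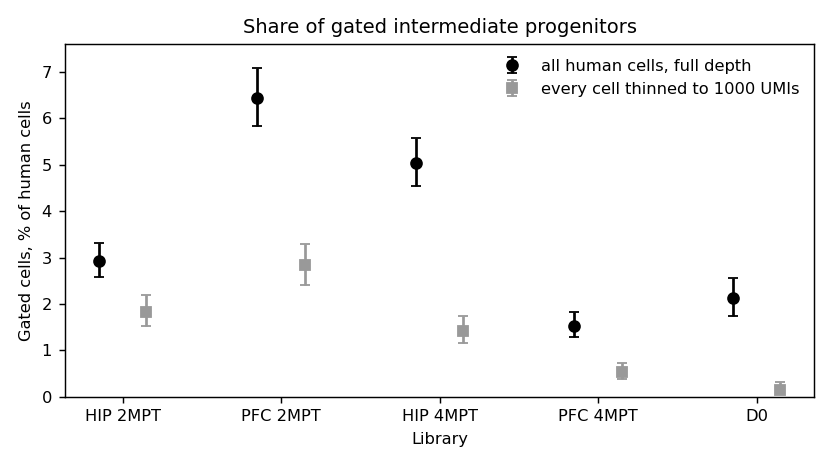
Gated progenitors as a percentage of human cells in each library, as counted and after thinning every cell to 1000 UMIs. Bars are exact 95% intervals for counting error. The unthinned prefrontal share is 6.43% at 2 months and 1.53% at 4 months and the hippocampal share 2.92% and 5.03%, while both thinned 4-month shares lie below both thinned 2-month shares.

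The mix of gate genes in these cells differed between the stages. EOMES had a UMI in 73.6%, 80.4%, 82.5% and 73.4% of gated progenitors, and PPP1R17 in 75.6%, 72.8%, 47.4% and 40.6%. PENK had one in 30.6%, 42.6%, 79.3% and 69.5%, and NEUROD4 in 32.2%, 29.2%, 19.0% and 30.5%. Among the gated progenitors PPP1R17 was more widely detected than PENK at 2 months and less widely at 4 months, at both sites, which the gate fixes in part, since a cell without PPP1R17 had to hold another pair. Over all human graft cells, PPP1R17 had a UMI in 7.32%, 9.81%, 4.30% and 1.58% and PENK in 2.59%, 7.04%, 11.7% and 4.57%, so that PENK overlapped between the stages and was lower at 4 months in the prefrontal cortex. The pair EOMES and PPP1R17 alone made up 39.3%, 34.5%, 14.7% and 14.1% of the gated progenitors, and the pair EOMES and PENK alone 7.44%, 12.0%, 39.9% and 34.4%. In D0, EOMES was detected in 86.5% of the chosen cells, NEUROD4 in 70.2%, PPP1R17 in 44.2% and PENK in 9.62%, at a median depth of 12948.5 UMIs.

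At 1000 UMIs per cell, PPP1R17 was detected in more cells than PENK at 2 months and in fewer at 4 months. The cells were still those chosen at full depth by these genes, so this order is no independent check. PPP1R17 was detected in 54.4%, 45.8%, 21.4% and 22.0% of the thinned gated progenitors and PENK in 18.9%, 23.8%, 38.4% and 38.6%. EOMES was detected in 57.8%, 43.4%, 32.7% and 31.5%, lower at 4 than at 2 months, which was not so at full depth. Thinning removed more of the UMIs that had chosen a cell where that cell was deeper. These shares thus depend on the gate and on the original depth, and they are no depth-matched stage difference. As a background, cells with at least 2 of the astrocyte genes AQP4, GFAP, AGT, S100B and ALDH1L1 were thinned alike. They included 6 gated progenitors of 512 cells in HIP_4MPT and 1 of 306 in PFC_4MPT, and with 14 and 34 cells they gave no background for the 2-month libraries. Among them EOMES was found in 0.789% at HIP_4MPT and 0.329% at PFC_4MPT, PPP1R17 in 1.38% and 0.329%, and PENK in 0.986% and 0.329%.

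Levels are given as CPM, the share of a gene in the UMIs summed over the cells, set to a common total. PPP1R17 stood at 721, 646, 253 and 250 CPM in the gated progenitors, PENK at 222, 233, 423 and 402 CPM, EOMES at 694, 530, 396 and 358 CPM and NEUROD4 at 228, 132, 63.8 and 133 CPM. Over all human cells of each library, which the gate did not select, PPP1R17 was 73.6, 88.1, 25.1 and 10.8 CPM, so both 4-month libraries were below both 2-month libraries there too. PENK over all human cells was 21.0, 39.6, 60 and 31.3 CPM, and its stages overlapped. The gated progenitors held 27.3%, 43.8%, 38.8% and 19.7% of all EOMES UMIs of their libraries.

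**Figure D2:**
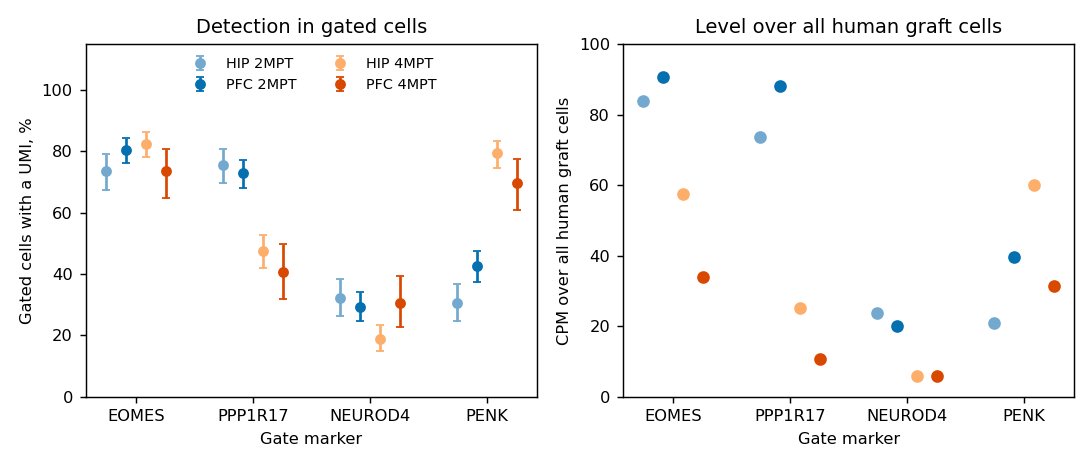
Left, percentage of gated progenitors (gated cells) with a UMI of each gate gene, by library, with exact 95% intervals, and right, CPM of the same genes over all human graft cells of each library. PPP1R17 is detected in 75.6% and 72.8% of gated progenitors at 2 months and 47.4% and 40.6% at 4 months, PENK in 30.6% and 42.6% and then 79.3% and 69.5%, and PPP1R17 is also lower at 4 months over all human cells.

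Cells just inside the gate are set beside those just outside it, without a test. Cells with exactly 2 gate genes numbered 214, 294, 260 and 111, and cells with exactly 1 numbered 1193, 781, 1080 and 742. HES6, a neurogenic partner of the Notch effectors, was 1480, 1798, 628 and 1125 CPM just inside and 1116, 1252, 557 and 825 CPM just outside. SSTR2, a somatostatin receptor gene, was 337, 700, 327 and 315 CPM inside and 277, 351, 168 and 190 CPM outside. The neuronal microtubule regulator STMN2 was 2102, 1560, 1596 and 1337 CPM inside and 3165, 2136, 1891 and 1666 CPM outside. NEUROG1 was 24.3, 87.4, 32.9 and 7.33 CPM inside and 17.1, 77.9, 29.7 and 13.9 CPM outside, so it was lower inside in PFC_4MPT. SOX2 went both ways, at 118, 227, 442 and 187 CPM inside and 80.9, 252, 403 and 261 CPM outside.

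Of the 20 intermediate progenitor genes on the list that were not in the gate, 10 were higher and 1 was lower in gated progenitors than in the other human graft cells in all 4 libraries. The gate separated the 2 sets of cells, so these are descriptions with no test. The list was chosen with earlier results of these data known, so the count is no independent check of identity. HES6 was 1525.5, 1809.7, 753 and 1165 CPM in gated progenitors and 739, 756, 487 and 632 CPM in the other cells. SSTR2, the somatostatin receptor of cortical progenitors and young neurons, was 328, 706, 346 and 310 CPM against 190, 184, 94.3 and 95.8 CPM. HES6 and SSTR2 were thus higher in all 4 libraries.

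Among proneural factors, NEUROG1 was 21.7, 109, 68.0 and 9.50 CPM against 6.47, 25.6, 10.0 and 3.57 CPM, and NHLH1 was 182, 161, 38.1 and 69.6 CPM against 148, 46.8, 7.46 and 13.2 CPM. NEUROG2, which drives radial glia toward the neuronal lineage, was 111, 158, 51.4 and 79.1 CPM against 101, 122, 23.5 and 44.1 CPM. All 3 were higher in every library, NEUROG2 by little in HIP_2MPT. NEUROD1, which follows EOMES in the textbook order of this lineage, was 13.5, 27.4, 35.6 and 47.5 CPM against 25.8, 23.3, 17.4 and 27.6 CPM and was lower in HIP_2MPT. INSM1, a zinc finger factor of basal progenitors, was lower in all 4 libraries, at 122, 178, 133 and 146 CPM against 130, 264, 181 and 221 CPM. All 20 had at least 10 UMIs in the gated progenitors, and of the 12795 genes outside the gate with that many, 7.89% were higher and 16.5% lower in all 4 libraries.

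The Notch ligands changed sides with the stage. DLL1 was 27.1, 27.4, 16.6 and 28.5 CPM in gated progenitors against 23.0, 17.2, 50.5 and 39.3 CPM in the other cells, and DLL3 was 70.5, 94.4, 53.0 and 95 CPM against 53.8, 68.0, 114 and 160 CPM. Both ligands were higher in gated progenitors in the 2-month libraries and lower in the 4-month libraries. HES1, the Notch target that keeps radial glia undifferentiated, was 40.6, 153, 84.5 and 72.8 CPM against 93.2, 342, 251 and 206 CPM, lower in all 4. Of 15 Notch genes with at least 10 UMIs, 1 was higher (6.67%) and 4 were lower (26.7%) in all 4 libraries.

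Of 14 radial glia genes with at least 10 UMIs, 9 were lower (64.3%) and 0 higher in gated progenitors of all 4 libraries. The intermediate filament gene VIM was 152, 86.5, 231 and 187 CPM in gated progenitors against 246, 727, 648 and 453 CPM. PAX6, a radial glial factor that early intermediate progenitors still carry, was 89.4, 138, 104 and 91.8 CPM against 50.4, 88.3, 74.2 and 92.6 CPM, higher in 3 of 4 libraries. STMN2 was 2032, 1428, 1382 and 1336 CPM against 3871, 2651, 1609.9 and 1522 CPM. VIM and STMN2 were thus lower in all 4 libraries.

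Some early neuronal genes did not follow that pattern. TBR1, the T-box factor that succeeds EOMES in deep-layer neurons, was 62.3, 60.9, 56.4 and 47.5 CPM against 35.0, 41.6, 29.2 and 36.2 CPM. UNC5D, a netrin receptor of the subventricular zone and upper layers, was 658, 1058, 1324 and 687 CPM against 358, 757, 640.1 and 392 CPM. SOX5 was 409, 833, 1120.5 and 500.1 CPM against 266, 518, 648 and 429.7 CPM. Of 16 newborn neuron genes, 5 were higher and 5 lower in all 4 libraries (31.2% each), and of 11 synaptic genes with at least 10 UMIs 0 were higher and 3 lower (27.3%).

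**Figure D3:**
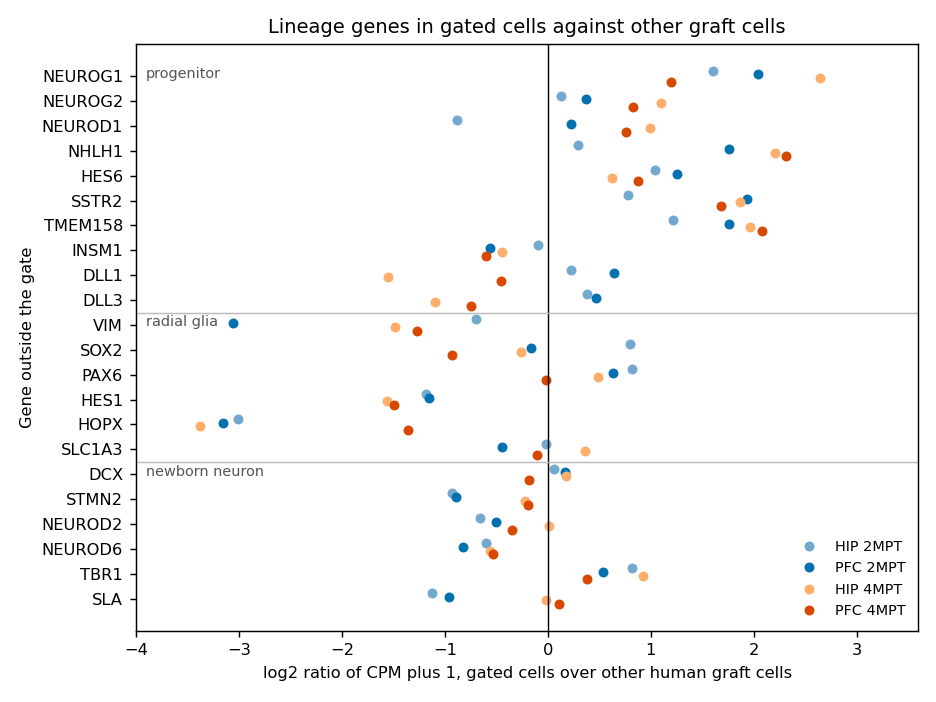
Log2 ratio of CPM plus 1 in gated progenitors (gated cells) over the other human graft cells of the same library, 1 point per library, for progenitor, radial glia and newborn neuron genes outside the gate. HES6, SSTR2, NEUROG1, NHLH1 and TBR1 lie right of 0 in all 4 libraries, VIM, HES1 and STMN2 lie left of 0 in all 4, and DLL1 and DLL3 lie right of 0 at 2 months and left of it at 4 months.

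The genes that define inhibitory, Cajal-Retzius and choroid plexus cells had few UMIs in the gated progenitors. Of the inhibitory lineage, GAD1 had 1, 0, 1 and 2 UMIs, GAD2 had 1, 2, 1 and 16, DLX2 had 0, 0, 0 and 6, and DLX5 had 0, 1, 0 and 5, so the PFC_4MPT library held most of them. The 12 genes of that list summed to 138, 176, 188 and 215 CPM in gated progenitors and 61.7, 144, 482 and 871 CPM in the other cells. RELN, which defines Cajal-Retzius cells, had 0 UMIs in all 4 libraries, and the 8 genes of its list summed to 24.4, 5.29, 4.14 and 6.33 CPM. TTR, the main transcript of choroid plexus, had 3, 5, 1 and 0 UMIs. Of the oligodendrocyte lineage, SOX10 and CSPG4 had 0 UMIs in all 4 libraries, whereas OLIG1 had 0, 4, 67 and 24 UMIs and the growth factor receptor gene EGFR had 4, 8, 36 and 21.

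The 20 genes whose smallest ratio to the other cells was largest, among those at 50 CPM or more in every library, were led by CA12 and TMEM158. CA12, a membrane carbonic anhydrase, was 70.5, 101, 63.0 and 63.3 CPM against 24.3, 21.9, 11.9 and 9.25 CPM, a ratio of 2.82 to 6.28 (pseudocount 1 CPM). TMEM158 was 228, 1758, 1939 and 1738 CPM against 97.6, 518, 496 and 411 CPM, a ratio of 2.32 to 4.22. The other genes were the glypican GPC6, AC017053.1, the phospholipase PLCB4, the nuclear factor DACH1, KIF26B, GRAMD1B, DAAM1, ZXDC, PAM, SSTR2, CMC1, HECW1, the peroxidase PRDX1, CLMP, DUBR, ZNF536, NKAIN3 and the neuritin gene NRN1. All 20 stayed above 1 in all 4 libraries after thinning.

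PAM encodes the enzyme that amidates neuropeptides, and its level was 84.0, 175, 183 and 139 CPM in gated progenitors against 46.5, 101, 102 and 71.4 CPM. The carboxypeptidase gene CPE, whose product trims propeptides, was 358, 412, 510 and 513 CPM against 374, 421, 549 and 477 CPM, nearly equal in both sets. PENK apart, the opioid ligand and receptor genes PDYN, PNOC, POMC, OPRM1, OPRD1, OPRK1 and OPRL1 each had 0 or 1 UMI in the gated progenitors of every library, as did the convertase genes PCSK1 and PCSK2.

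On the low side, the 20 genes with the smallest ratios included HS6ST3, the growth factor PTN, the adhesion genes DSCAM, CHL1 and CNTNAP2, the splicing factor RBFOX1, the reelin adaptor DAB1, the semaphorin co-receptor NRP1 and the netrin receptor DCC. PTN was 40.6, 107, 155 and 136 CPM in gated progenitors against 121, 386, 702 and 531 CPM. DCC was 401, 70.6, 245 and 231 CPM against 948, 341, 565 and 441 CPM. NRP1 was 108, 51.2, 39.8 and 47.5 CPM against 290, 223, 109 and 107 CPM. PTN, DCC and NRP1 were each lower in gated progenitors of all 4 libraries.

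PENK-positive and PENK-negative gated progenitors lay close in HES6 and SSTR2. HES6 was 1552, 1681, 736 and 1056 CPM in those with PENK and 1514, 1906, 813 and 1418 CPM in those without, and SSTR2 was 318, 737, 353 and 304 CPM against 332, 682, 317 and 326 CPM. APOE, an astrocyte and progenitor apolipoprotein, differed at 4 months, when it was 162 and 163 CPM with PENK against 19.4 and 21.0 CPM without, from 154 and 36 UMIs against 5 and 2. CLU, another glial secreted protein, was 347 and 267 CPM against 143 and 116 CPM in the same libraries. The split used PENK, and the cells without it had to hold a pair of the other 3 genes, so no test was made.

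Between 2 and 4 months, a small set of genes rose and a smaller one fell in the gated progenitors. The quasi-likelihood test of edgeR on UMIs summed over the gated progenitors of each library, with 2 residual degrees of freedom, called 30 of 8829 genes (0.34%) at a Benjamini-Hochberg adjusted p under 0.05, 26 higher (0.294%) and 4 lower (0.0453%) at 4 months. At an unadjusted p under 0.05 there were 667 genes. DESeq2 called 17 genes, 16 of them among the 30, edgeR on cells thinned to 1000 UMIs called 4 (15 of the 30 could be tested), and edgeR without PENK in the gate called 3 (22 could be tested). The same test on the other human graft cells called 411 of 17908 genes (2.3%), 329 higher (1.84%) and 82 lower (0.458%). In gated progenitors, the genes that rose with the largest folds included APOE, OLIG1, MT3 and BCAN, and those that fell included NEUROD6 and the cholesterol synthesis gene FDFT1. In summed counts, more or fewer cells of a type and more or less RNA of a gene per cell cannot be told apart.

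APOE had 0 UMIs in the gated progenitors of both 2-month libraries, which allows up to 8.13 and 2.65 CPM, and stood at 132 CPM in HIP_4MPT and 120 CPM in PFC_4MPT. Over both libraries of a stage this was at least 64.8-fold higher at 4 months, counting 3 UMIs as the limit of 0 (edgeR adjusted p = 5.83e-05). OLIG1, a basic helix-loop-helix factor of glial precursors, was 0, 3.53, 55.5 and 76.0 CPM (log2 change 4.62 ± 0.60 SE, edgeR adjusted p = 0.00544). In APOE and OLIG1 both 4-month libraries lay far above both 2-month libraries. At 4 months the APOE UMIs lay mostly in gated progenitors with PENK, whose share of the gated progenitors was larger than at 2 months. MT3, a metallothionein of astrocytes, was 8.13, 2.65, 53.0 and 133 CPM (4.43 ± 0.65, edgeR adjusted p = 0.00632). BCAN, the proteoglycan brevican, was 0, 3.53, 48.1 and 53.8 CPM (4.28 ± 0.60, edgeR adjusted p = 0.00621). Of the 26 genes that rose, 15 were below the low-count filter (13.3 CPM) in both 2-month libraries, among them APOE, OLIG1, MT3, BCAN, GABRB1, ADAMTS6, CDH8 and GALNTL6. They entered the test only through the 4-month libraries and could only be called as higher, and all 30 genes were also called without that filter. The 6 called genes with a mean under 20 CPM were outside the naming rule.

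The other genes named by fold are of mixed function. GABRB1, a GABA-A receptor subunit, was 8.13, 3.53, 128 and 22.2 CPM, so the hippocampal library carried most of its rise (4.20 ± 0.69, edgeR adjusted p = 0.0177). PRKG1, a cGMP-dependent kinase, was 43.4, 67.9, 606 and 234 CPM (2.98 ± 0.42, edgeR adjusted p = 0.00621). CDH8, a cadherin, was 0, 5.29, 47.2 and 28.5 CPM (3.43 ± 0.61, edgeR adjusted p = 0.0210). The metalloprotease ADAMTS6 and the glycosyltransferases GALNTL6 and MGAT4C rose too, by 3.47 ± 0.62, 3.28 ± 0.58 and 2.97 ± 0.43 on the log2 scale, each called by edgeR. The cell adhesion gene LSAMP, at 173, 184, 782 and 377 CPM, was called as well but outside the 10 largest folds. The 6 genes before it were all higher in HIP_4MPT than in PFC_4MPT, and in each the stages did not overlap.

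Among the genes that fell, NEUROD6, which marks differentiating excitatory neurons, was 282, 152, 25.7 and 47.5 CPM (log2 change −2.57 ± 0.42, edgeR adjusted p = 0.0177). FDFT1, which encodes squalene synthase, was 263, 252, 69.6 and 85.5 CPM (−1.65 ± 0.31, edgeR adjusted p = 0.0332). The long non-coding RNA LINC00486 was 163, 91.8, 26.5 and 19.0 CPM (−2.24 ± 0.40, edgeR adjusted p = 0.0207). In all 3 genes both 4-month libraries lay below both 2-month libraries. The same order held in the excitatory neuron gate described further on, where LINC00486 was 164, 109, 26.3 and 17.8 CPM and FDFT1 125, 122, 31.6 and 55.9 CPM. INSIG1, a sterol sensor of the same pathway as FDFT1, was 46.1, 66.2, 14.9 and 9.50 CPM and did not pass the test (edgeR adjusted p = 0.0624), nor did ALPK1 at 40.6, 39.7, 8.29 and 6.33 CPM (edgeR adjusted p = 0.0682). The fourth gene that passed in this direction was AC022395.1, at 40.6, 15, 0 and 0 CPM. It was below the low-count filter in both 4-month libraries. It thus entered the test only through the 2-month libraries and could only be called as lower.

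**Figure D4:**
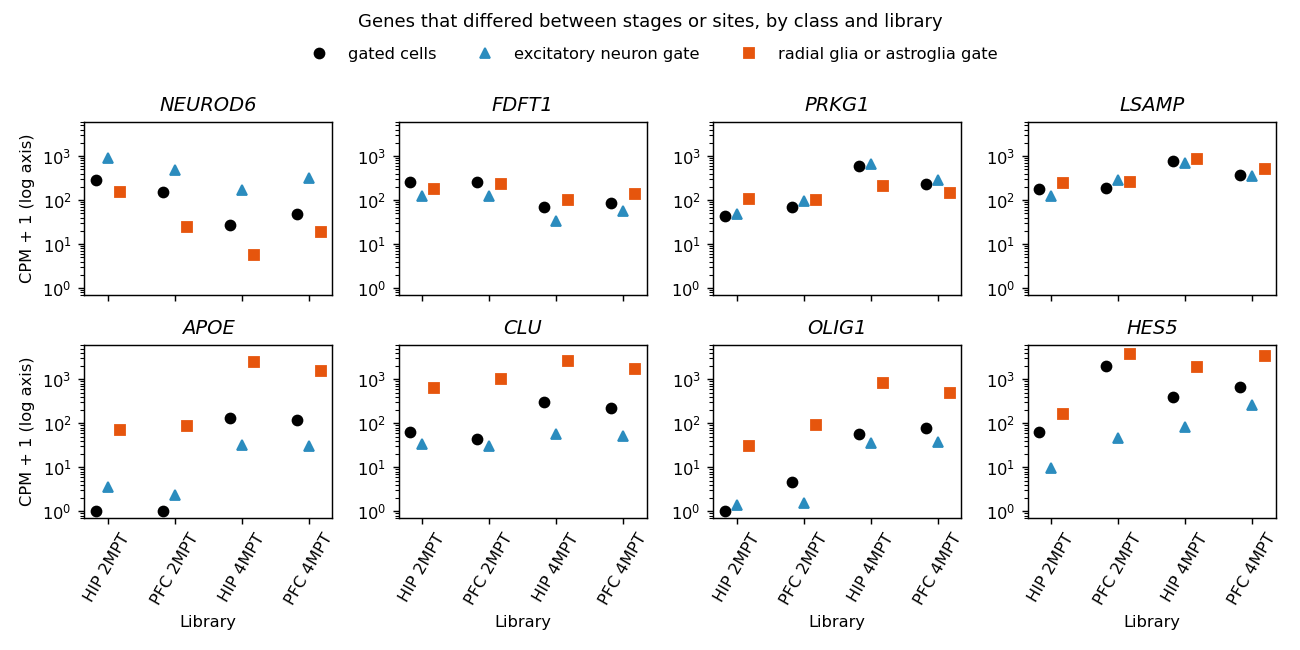
CPM plus 1 (log axis) of 8 genes in each graft library, for gated progenitors (gated cells), the excitatory neuron gate and the radial glia or astroglia gate, without error bars because each point is 1 library. APOE is at 0 in gated progenitors at 2 months and at 132 and 120.3 CPM at 4 months, below the glia gate and above the neuron gate, NEUROD6, which is a gene of the neuron gate, and FDFT1 are lower at 4 months, and HES5 is lowest in HIP_2MPT in all 3 classes.

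By list, most intermediate progenitor, Notch and S-phase genes had a negative log2 change from 2 to 4 months, and none of these passed the test. Of 19 intermediate progenitor genes tested, 0 passed, 4 had a positive log2 change and the median was −0.36, beside a median of 0.02 over all genes tested. NHLH1 was the closest of those described above (log2 change −1.66, edgeR adjusted p = 0.0814), and GADD45G, a growth arrest gene of this stage, was 723, 695, 336 and 285 CPM (log2 change −1.07, not called). Of 10 S-phase and licensing genes, 0 passed and 0 had a positive change, with a median of −1.05. Of 12 Notch genes, 0 passed, 2 were positive and the median was −0.31. Of 16 newborn neuron genes, NEUROD6 fell, 4 were positive and the median was −0.32. Over all genes tested, the 4-month libraries were both higher for 12.5% and both lower for 24.6%.

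Most radial glia and mitochondrially encoded genes had a positive log2 change. Of 12 radial glia genes tested, 11 were positive with a median of 0.87, and 0 passed. Of 13 mitochondrially encoded genes, 11 were positive with a median of 0.98, and 0 passed. The mitochondrial genes summed to 36843, 24098, 32903 and 71618 CPM, highest in PFC_4MPT, where the other human cells summed to 71667 CPM. The 10 immediate early genes had a median of −0.26 with 3 positive, and 8 heat shock genes had a median of 0.28 with 6 positive, and 0 passed in either list.

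Of the 9 genes of the astrocyte list, 3 passed the filter on low counts, APOE, CLU and AQP4, and these rose. APOE and AQP4 had 0 UMIs at 2 months and passed the filter only through the 4-month libraries, so their direction was fixed by it and the count says nothing about the list as a whole. CLU, the most abundant of them, was 62.3, 43.2, 303 and 222 CPM (log2 change 2.50 ± 0.33 SE, edgeR adjusted p = 0.00575), and AQP4, the astrocyte water channel, was 0, 0, 33.2 and 22.2 CPM, at least 15.5-fold higher over the stage. The 9 genes summed to 75.9, 56.5, 508 and 383 CPM in gated progenitors and 124, 271, 1865 and 902 CPM in the other cells. Of the 9 genes, 6, 4, 1 and 3 were at 0 UMIs in the gated progenitors, GFAP had 3, 3, 10 and 1 UMIs, S100B had 0, 6, 8 and 0, and AGT had 0, 0, 9 and 0. The 8 genes of the oligodendrocyte lineage list summed to 35.2, 21.2, 113 and 161 CPM, with OLIG1 the called gene of 2 tested.

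APOE was also higher at 4 months in cells that the gate left out. It was 9.15, 14.5, 689 and 307 CPM in the other human graft cells, 2.67, 1.36, 32.0 and 30.0 CPM in a gate for excitatory neurons (at least 2 of NEUROD2, NEUROD6, TBR1 and SLA, and none of the 4 progenitor genes) and 69.2, 84.8, 2487 and 1572 CPM in a gate for radial glia or astroglia. Single cells with an APOE UMI made up 0%, 0%, 8.33% and 7.81% of gated progenitors, 0.392%, 0.208%, 7.93% and 4.21% of gated neurons and 5.34%, 9.97%, 46.7% and 40.4% of gated glia. The neuron gate had a median of 1330.5, 2353, 2667.5 and 1968 UMIs per cell. In HIP_4MPT the 29 gated progenitors with APOE held 159 of its UMIs, and the 78 gated neurons with APOE held 90, so the shares of cells were close there while the CPM was higher in gated progenitors. For CLU the shares were 7.44%, 11.2%, 29.3% and 24.2% of gated progenitors against 4.31%, 6.29%, 13.4% and 7.17% of gated neurons. What free RNA, doublets or transcripts of the cells themselves contributed to this rise was not tested.

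Gated progenitors with at least 2 of 17 astrocyte and oligodendrocyte genes numbered 1, 7, 46 and 12, or 0.413%, 1.83%, 13.2% and 9.38%, while in the neuron gate the shares were 0.504%, 0.375%, 6.30% and 5.27%. Without those cells, an alternative chosen after seeing the data, edgeR called 11 of 8307 genes, all among the 30. CDH8, GALNTL6, PRKG1, MGAT4C, NEUROD6 and LINC00486 stayed called, FDFT1 had an edgeR adjusted p of 0.0617 and MT3 one of 0.180. APOE, OLIG1, AQP4 and BCAN were then too low to be tested, 3 of them being genes on which cells had been left out.

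In the excitatory neuron gate, both 4-month libraries lay above both 2-month libraries for 12.4% of all genes tested and below both for 27.1%. Of the 11 genes that rose and did not enter the test through the 4-month libraries alone, 10 were among the former. NEUROD6, a gene of that gate, FDFT1 and LINC00486 were among the latter. The fourth gene that fell, AC022395.1, entered the test through the 2-month libraries alone and is left out here. Without HIP_4MPT or without PFC_4MPT, 0 genes passed in edgeR, with 435 and 826 at an unadjusted p under 0.05. The lone 4-month library is then assumed to vary like the 2-month pair, and each of the 30 genes that could be tested kept its sign. Calls numbered 66 without HIP_2MPT and 61 without PFC_2MPT.

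The comparison of graft sites, with the stage as a covariate and 1 residual degree of freedom, called 2 of 8829 genes (0.0227%), 1 in each direction (0.0113%). HES5, a Notch target of neural progenitors, was 62.3, 2012, 398 and 655 CPM in gated progenitors and higher in the PFC (log2 difference 2.75 ± 0.47 SE, edgeR adjusted p = 6.56e-05). In the other human cells it was 35.1, 1071, 1016 and 1520.1 CPM, and in the radial glia or astroglia gate 166, 3730.1, 1936 and 3388 CPM, so HES5 was lowest in HIP_2MPT in each of these classes. The gene lies on chr1:2528745-2530263 (minus strand, GRCh38, GENCODE v44).

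NELL1, a secreted protein gene, was 114, 16.8, 71.3 and 12.7 CPM in gated progenitors and higher in the HIP (log2 difference −2.60 ± 0.50, edgeR adjusted p = 7.06e-04), with 69.6, 9.0, 21.7 and 10.1 CPM in the other cells. Its 2 hippocampal values lay above both prefrontal values at either stage. IGFBP2, at 54.2, 368, 176 and 218 CPM, did not pass (edgeR adjusted p = 0.277), nor did PRKCE at 54.2, 9.71, 24.0 and 3.17 CPM (edgeR adjusted p = 0.141). ITPR2, LYSMD1, CSMD1, DSCAML1, CRYAB and GABRB1, the others with the smallest p, were not called either, with log2 differences of 1.93, 1.92, 2.21, −1.63, −1.92 and −2.05. DESeq2 called 0 genes for the site, with 25 at an unadjusted p under 0.05, and edgeR called 0 for cells over 1000 UMIs, for a human share over 0.9, without PENK in the gate and without the stage covariate, with 195, 202, 78 and 169 at an unadjusted p under 0.05. At 1 library per site and stage, the site cannot be told apart from differences between libraries.

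The stage change of the gated progenitors was then set against that of the other human graft cells, in 1 edgeR model with the library as a block. Of 16268 genes, 83 (0.51%) had a different change, 33 with a more positive one (0.203%) and 50 with a more negative one (0.307%) in gated progenitors. Without HIP_4MPT there were 12 such genes and without PFC_4MPT 38. Notch pathway genes were among the second group. Of 16 Notch genes tested, HES5, DLL3, DLL1 and MFNG passed, all with a more negative change, 2 were positive and the median was −0.94. HES5 had a difference in log2 change of −2.18 (edgeR adjusted p = 1.29e-21). It went from 35.1 and 1071 to 1016 and 1520.1 CPM in the other cells and from 62.3 and 2012 to 398 and 655 CPM in gated progenitors, whose values were higher at 4 months in the hippocampus and lower in the prefrontal cortex. DLL1 differed by −1.80 and DLL3 by −1.41, from the levels given above. In the other cells both ligands were higher at 4 months at both sites. In gated progenitors both were lower in the hippocampus and nearly unchanged in the prefrontal cortex.

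Other genes with a more negative change were PCDH9, MAML2, KIRREL3, SPARCL1 and CDCA3. PCDH9, a protocadherin, was 122, 104, 47.2 and 76.0 CPM in gated progenitors and 32.4, 36.4, 100 and 106 CPM in the other cells (−2.52, edgeR adjusted p = 1.64e-18). Its level was thus higher in gated progenitors at 2 months and higher in the other cells at 4 months. KIRREL3, an adhesion gene, was 8.13, 6.18, 10.8 and 12.7 CPM in gated progenitors and 7.02, 6.78, 110 and 38.7 CPM in the other cells (−3.01, edgeR adjusted p = 0.00604). MAML2, a Notch coactivator, differed by −2.58 (edgeR adjusted p = 3.13e-09) and the astrocyte gene SPARCL1 by −2.94 (edgeR adjusted p = 0.0329). CDCA3, a cell division gene, was 8.13, 7.06, 0 and 0 CPM in gated progenitors, so its fitted difference is no measure of size. The gate also left the cycling cells among the other cells, so the level of CDCA3 in both classes depends on the gate.

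The 5 named genes with a more positive change were KCNK2, SH2D3C, CRIM1-DT, NPAS4 and MCTP1. KCNK2, a potassium channel, was 2.71, 10.6, 33.2 and 15.8 CPM in gated progenitors and 17, 43.6, 27.8 and 22.4 CPM in the other cells (2.20, edgeR adjusted p = 0.00353). NPAS4, an activity-regulated transcription factor, was 16.3, 19.4, 13.3 and 38.0 CPM against 45.7, 97.3, 12.5 and 51.3 CPM (1.99, edgeR adjusted p = 0.00279). SH2D3C, MCTP1 and CRIM1-DT differed by 2.17, 1.69 and 2.09. In NPAS4 the other cells were lower at 4 months at both sites, while the gated progenitors were lower in the hippocampus and higher in the prefrontal cortex. NHLH1, STMN2 and SLA also had a more positive change, as did FAM107A, the called gene of the radial glia list, whose 0, 0, 3.32 and 22.2 CPM in gated progenitors make its fitted difference no measure of size.

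Set against the excitatory neuron gate in place of all other cells, edgeR called 22 genes, 11 in each direction, of which 8 were among the 83. HES5 (−3.31, edgeR adjusted p = 4.42e-16) and CRIM1-DT (2.33, edgeR adjusted p = 0.00922) were called against neurons too, and CLU rose more in gated progenitors than in neurons (1.60, edgeR adjusted p = 2.46e-04). PCDH9 (−0.83, edgeR adjusted p = 0.563) and MAML2 (−1.15, edgeR adjusted p = 0.589) were not called against neurons. The Notch genes DLL1, DLL3 and MFNG were not among the 22 either. Of the 30 genes of the stage comparison, LRRTM4, SOX2-OT and PID1 had a change that differed from that of the other graft cells.

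**Figure D5:**
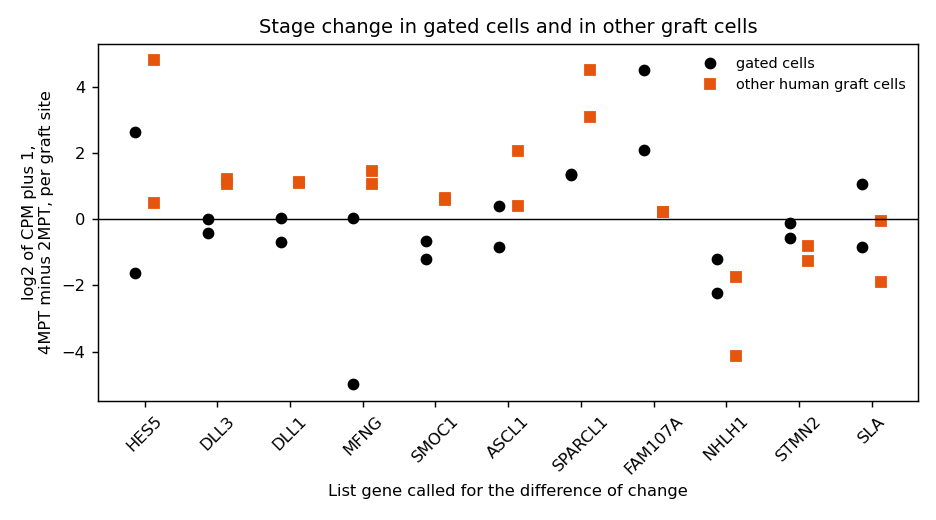
Stage change per graft site (log2 of CPM plus 1, 4 months minus 2 months) of the list genes called for a difference in change, with 1 point per site for gated progenitors (gated cells) and for the other human graft cells. HES5 moves by 2.65 in hippocampal and −1.62 in prefrontal gated progenitors and is higher at 4 months at both sites in the other cells, and DLL1 and DLL3 are above 0 in the other cells and near or below 0 in gated progenitors.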

How the data were processed

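Per the labels and the study's methods, the authors built the 3′ libraries with 10x Genomics v3 chemistry and aligned them with Cell Ranger, version 3.1.0 in the D0 file headers and 5.0.0 in the graft headers, to a human reference and to a joint human and mouse reference (GRCh38). The deposited values are UMI counts per gene and cell, without normalization; the counting of intronic reads is not given in the sources used here. The D0 and graft samples gave 5 libraries, and the authors' own tests, which took cells as replicates, were not used.

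Cells were gated on the human matrix, and the human share came from the joint matrix. UMIs were summed over the gated cells of each library, since cells are not replicates, and tested with edgeR 4.0.16 (quasi-likelihood test, filterByExpr, TMM, Benjamini-Hochberg threshold 0.05) in R 4.3.3, with DESeq2 1.42.0 as an alternative. CPM divides by the summed UMIs of the cells concerned. Shares have exact Clopper-Pearson 95% intervals, and 0 UMIs was read as up to 3. Scrublet marked 4 of 29505 cells as doublets with its automatic threshold and so had not worked; no cells were removed on it, and leaving out the 6% with the highest scores was an alternative. The fit was tested on simulated data of 8836 genes for the stage comparison, with a dispersion of 0.047. There it recovered 73 of 100 genes changed 4-fold and 16 of 100 changed 2-fold, with 4 false calls. The rate of false calls in the real libraries, which also differ in graft site and depth, was not tested.

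The genes named were the gate genes and fixed list members; for stage and site the 10 called genes of highest fold in each direction at a mean of at least 20 CPM, or the 5 with the smallest p where fewer than 5 were called; the 20 genes with the largest smallest ratio to other cells at 50 CPM or more; and the 5 called genes of highest class difference in each direction at 20 CPM or more. Where others are named, they were chosen after their values were seen. The gated cells and lists were chosen with earlier results of these data known. Alternatives covered normalization, filters, doublets, gate settings, thinning, the graft site as a block and leaving out each library. Not all genes that these rules name are reported here.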

Additional observations from a re-analysis of the deposited data

Results flagged for a closer look

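The share of gated progenitors among human graft cells moved in opposite directions at the 2 graft sites between 2 and 4 months, by 2.11 percentage points in the hippocampus and −4.90 in the prefrontal cortex. With 1 library per site and stage this difference was not tested, and after thinning to 1000 UMIs the 4-month share was the lower at both sites, while a gate without PENK gave 2.19% and 2.20% in the hippocampus. HES5 in gated progenitors also moved in opposite directions, by 2.65 on the log2(CPM + 1) scale in the hippocampus and by −1.62 in the prefrontal cortex, a difference that was not tested.

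Of the 83 genes whose stage change in gated progenitors differed from that in the other human graft cells by the edgeR test of the difference itself, the 10 named by size are given here. The difference was positive in KCNK2 (2.20), SH2D3C (2.17), CRIM1-DT (2.09), NPAS4 (1.99) and MCTP1 (1.69). It was negative in PCDH9 (−2.52), MAML2 (−2.58), SPARCL1 (−2.94), KIRREL3 (−3.01) and CDCA3 (−9.35), where CDCA3 had 0 UMIs in the gated progenitors of both 4-month libraries, so that its value depends on the prior count of the fit. Against the excitatory neuron gate, CRIM1-DT was called among these 10.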

How the results depend on the processing

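The 30 stage calls kept their sign in every alternative in which they were tested. Their number was 17 with DESeq2 (16 shared), 134 without a filter on low counts, 3 when PENK was not used in the gate (6551 genes tested), 4 after thinning each cell to 1000 UMIs (4808 genes tested), 11 without gated progenitors holding at least 2 glial genes (chosen after seeing the data), and 0 to 66 when 1 library was left out. The replicate numbers are not from the labels and were assigned here to stand for the graft sites. With the site as a replicate block, 62 genes were called, including all 30. Deviations from the stage means of libraries of the same site had a correlation of −0.137 over 6938 genes, so the numbers do not pair the libraries. The 2 site calls were 0 with DESeq2 or without the stage as a covariate, 0 for cells over 1000 UMIs, for a human share over 0.9 or without PENK in the gate, and 3 without a filter; without any 1 library no residual degrees of freedom remained. The 83 class differences became 27 after thinning (26 shared), 22 against the excitatory neuron gate, and 12 (without HIP_4MPT) to 99 (without PFC_2MPT) when 1 library was left out. The share of gated progenitors in the 4 libraries was 0.338%, 1.5%, 1.27% and 0.203% with at least 3 of the 4 genes, 2.19%, 4.72%, 2.20% and 0.670% without PENK, 1.84%, 2.83%, 1.42% and 0.528% after thinning, and 1.83% in PFC_4MPT with a human share over 0.9. Depth limits the gate, since a pair of genes has to be detected in 1 cell.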
